A study of Mus musculus with 41 samples.

Results

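Hindbrain and forebrain neurospheres were compared in 6 RNA-seq libraries of WT-Tag cultures, 3 of each region, out of 41 libraries in the study. Neurospheres are clusters of neural stem and progenitor cells grown in suspension. They came from the hindbrain or the forebrain of e15.5 mouse embryos and were kept under conditions for neural precursors. The genotype in both regions was Nestin-cre; H3f3aLSL-WT-Tag/+, in which Cre under the Nestin promoter, active in neural precursors, removes a stop cassette and turns on tagged wild-type histone H3.3 from 1 H3f3a allele. Both regions therefore carry the tagged histone, and no culture without it is among the libraries. The cultures carry neither the PDGFRα nor the Trp53 alleles of the study's 29 brainstem tumors. Each culture letter (D, E or F) labels 1 hindbrain and 1 forebrain culture that share an experiment id and a sex, female for D and E and male for F. The labels do not say whether the cultures of a letter came from 1 embryo, or how many embryos were used, nor do they give a strain. The other 6 neurosphere libraries, K27M cultures A, B and C of each region (Nestin-cre; H3f3aLSL-K27M-Tag/+, all female), entered the same fit and served for a repeat of the comparison. The p-values measure the spread between these libraries, which may in part be technical.

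The neural tube is divided along its length by transcription factors that mark each level. Emx2 and Lhx2 mark the developing forebrain. En2 marks the midbrain and the boundary to the hindbrain, Iroquois (Irx) factors are expressed from the midbrain backwards, and HOX genes mark the hindbrain behind the boundary and the spinal cord. Progenitors taken into culture can keep part of this positional code.

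Values are FPKM (fragment counts divided by transcript length and library size), and 3 FPKM values in a row are cultures D, E and F unless other letters are given. Changes are log2 changes, hindbrain minus forebrain, on log2(FPKM + 1), with SE, from limma with culture letter as a block, and a gene is said to rise or fall where its adjusted p was below 0.05 over the 13190 genes tested. Relative depth, read from the spacing of low values and scaled to the median of the 12 neurosphere libraries, was 0.989, 1.12 and 1.27 in the hindbrain cultures and 0.447, 1.25 and 1.18 in the forebrain cultures, so forebrain D is the shallowest of the 6. Xist was at 32.7 to 58.2 FPKM in the D and E libraries and at most 0.043 FPKM in the F pair, and the Y-linked Ddx3y, Kdm5d, Eif2s3y and Uty were at 0 in D and E and at 6.80 to 22.8 FPKM in the F pair, as labelled. H3f3a, which carries the knock-in allele, was at 112, 98.8 and 107 FPKM in hindbrain cultures, against 106, 94.0 and 93.4 FPKM in forebrain cultures (0.12 ± 0.09, limma adjusted p = 0.596). A summed gene value does not separate the tagged from the untagged allele.

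The labelled cell type was checked against its markers. Sox2, a factor of neural stem cells, was at 96.2, 86.8 and 108 FPKM in hindbrain cultures, against 89.9, 86.4 and 88.0 FPKM in forebrain cultures. Fabp7, a fatty acid binding protein of radial glia, was at 1272, 1630 and 1461 FPKM in hindbrain cultures, against 1258, 1555 and 1550 FPKM in forebrain cultures. Nes, the intermediate filament nestin, was at 110, 43.6 and 58.4 FPKM in hindbrain cultures and 106, 73.5 and 78.8 FPKM in forebrain cultures. Olig2, a factor of the oligodendrocyte lineage, was at 86.6 FPKM or more and Mki67, a protein of dividing cells, at 61.8 FPKM or more in each of the 6 libraries. For these 5 genes limma adjusted p lay between 0.222 and 0.998. Markers of endothelium, microglia and red blood cells were low, while those of choroid plexus and of meninges were detected. All 13 endothelial genes were under 1 FPKM in each library and summed to 0.926 to 1.14 FPKM in hindbrain and 0.997 to 1.14 FPKM in forebrain cultures. The 16 genes of microglia and macrophages summed to 1.86 to 2.71 FPKM in hindbrain cultures and 2.56 to 3.09 FPKM in forebrain cultures, with 15 of them under 1 FPKM in each library. The 9 red blood cell genes in the table summed to at most 0.345 FPKM. Genes of ependyma and choroid plexus summed to 28.01 to 35.4 FPKM in hindbrain cultures and 36.0 to 94.4 FPKM in forebrain cultures, with Ttr, the transthyretin made by choroid plexus, highest in the list (0.819, 20.6 and 17.4 FPKM in hindbrain cultures, against 29.7, 78.7 and 22.4 FPKM in forebrain cultures, limma adjusted p = 0.154). Genes of pericytes, fibroblasts and meninges summed to 26.3 to 66.8 FPKM in hindbrain and 39.7 to 42.7 FPKM in forebrain cultures. The part of these cells in the results was not tested.

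Of the 13190 genes, 266 differed between the regions (2.02% of genes tested), 157 higher in hindbrain (1.19%) and 109 lower (0.826%). By at least 2-fold, 121 genes differed (0.917%), 82 of them higher (0.622%) and 39 lower (0.296%). The median absolute log2 change of the 266 genes was 0.92 and the smallest 0.41, while the median change of all genes tested was −0.04. An unadjusted p below 0.05 was found for 1843 genes (14%). These shares over all genes are the background for the counts of each list that follow. In 244 of the 266 genes the 3 hindbrain values lay apart from the 3 forebrain values, which held for 14.7% of all genes tested. In bulk libraries such as these, fewer cells of a type and less RNA per cell cannot be told apart. Without pair D, E or F, with the K27M pairs kept in the fit, the counts were 153, 40 and 63, with 127, 40 and 63 of them among the 266, fewest without pair E. With no filter on low values 109 genes passed, and 94 passed in a fit of the 6 libraries alone without the block.

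**Figure D1:**
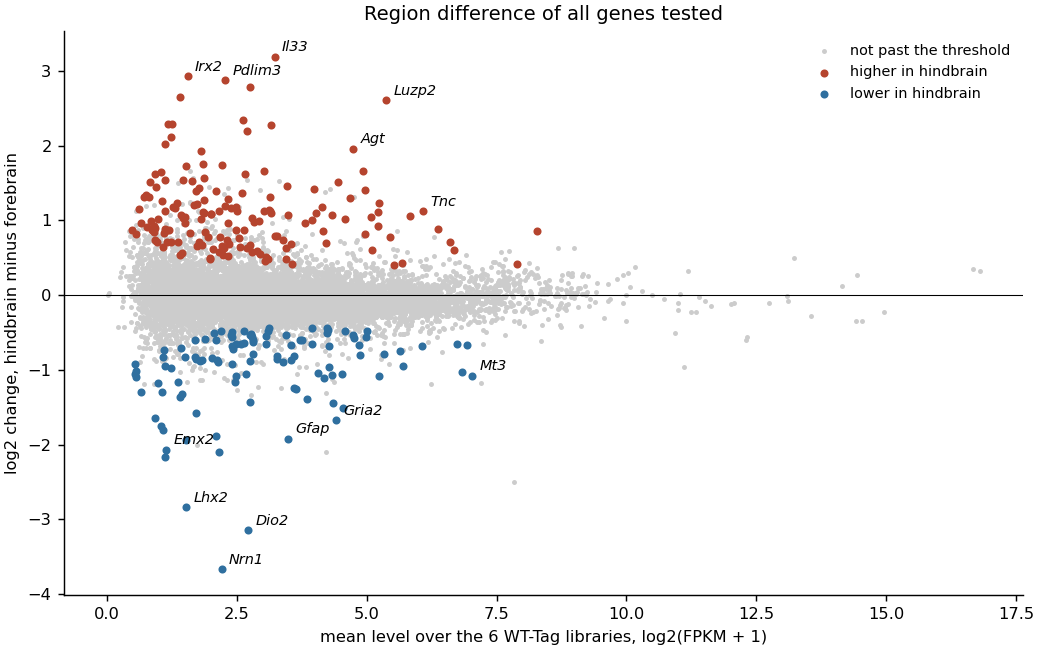
Log2 change (hindbrain minus forebrain, vertical axis) against the mean level over the 6 WT-Tag libraries as log2(FPKM + 1) (horizontal axis), with 1 dot for each of 13190 genes tested. The 157 genes that rose and the 109 that fell are coloured, and the changes run from −3.67 for Nrn1 to 3.19 for Il33.

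Regional patterning genes that passed divided by region. Of 20 tested genes in a list of midbrain and hindbrain factors, 11 rose in hindbrain cultures and none fell (median log2 change 1.22). Of 14 tested forebrain factors 6 fell and none rose (median −0.82, against −0.04 for all genes tested). Counting also genes that did not pass, 18 midbrain and hindbrain factors had a positive change and 2 a negative one. Of the forebrain factors 5 had a positive change and 9 a negative one. Both lists were written with earlier results of these data known. Their counts therefore describe the members chosen and do not test a division by region. The lists hold 50 and 45 genes, so that 30 and 31 of them lay below the filter of 1 FPKM in 3 of the 12 libraries. The promoters of 2 Iroquois genes that rose and 2 forebrain factors that fell are shown as examples of patterning genes that passed. Members of each pair changed in the same direction because the pairs were chosen by direction. Each stretch is the 250 bases before the gene's start from RefSeq, build GRCm38.p6, and is not in the coordinates of the deposited table, whose processing names mm9. Irx2 is at chr13:72628570-72628819 on the + strand, Irx3 at chr8:91801655-91801904 on the − strand, Lhx2 at chr2:38339031-38339280 on the + strand (the first of 2 promoters listed) and Emx2 at chr19:59458440-59458689 on the + strand. Capitals mark CG, which reads the same on both strands.
Irx2: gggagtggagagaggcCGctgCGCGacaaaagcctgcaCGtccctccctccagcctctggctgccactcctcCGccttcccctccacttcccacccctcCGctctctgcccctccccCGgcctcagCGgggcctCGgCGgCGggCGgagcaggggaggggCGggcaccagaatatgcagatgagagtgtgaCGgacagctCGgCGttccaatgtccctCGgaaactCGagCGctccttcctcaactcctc
Irx3: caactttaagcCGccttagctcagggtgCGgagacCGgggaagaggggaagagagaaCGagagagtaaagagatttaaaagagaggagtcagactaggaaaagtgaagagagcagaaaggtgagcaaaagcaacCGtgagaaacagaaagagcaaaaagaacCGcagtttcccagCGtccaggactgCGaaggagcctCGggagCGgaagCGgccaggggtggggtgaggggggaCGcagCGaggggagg
Lhx2: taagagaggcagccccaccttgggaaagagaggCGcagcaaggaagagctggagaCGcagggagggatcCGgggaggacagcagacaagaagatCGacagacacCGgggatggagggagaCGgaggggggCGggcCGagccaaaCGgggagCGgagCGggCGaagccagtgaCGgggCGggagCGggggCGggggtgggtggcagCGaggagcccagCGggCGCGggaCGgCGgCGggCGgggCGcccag
Emx2: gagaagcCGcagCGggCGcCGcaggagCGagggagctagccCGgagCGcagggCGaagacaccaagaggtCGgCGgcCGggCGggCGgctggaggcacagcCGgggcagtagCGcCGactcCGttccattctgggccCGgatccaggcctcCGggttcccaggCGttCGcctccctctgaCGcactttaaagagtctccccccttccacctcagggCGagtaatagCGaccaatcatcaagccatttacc
The stretches of Irx2 and Irx3 hold 19 and 13 CG, and those of Lhx2 and Emx2 hold 25 and 24. Of 32851 RefSeq promoters, 92.1% had at least 1 CG in the same window, 31.5% had at least 13, and the median was 6. Promoters could be matched for 70.7% of the genes that rose and 79.8% of those that fell, fewer than 80% in both, so a comparison of promoter sequence between the sets is void.

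The Iroquois homeodomain factors rose together. Irx2 was at 7.47, 6.24 and 7.82 FPKM in hindbrain cultures, against 0.059, 0.056 and 0.105 FPKM in forebrain cultures (2.92 ± 0.11, limma adjusted p = 0.000147). Irx1 was at 4.34, 3.55 and 5.19 FPKM in hindbrain cultures, against 0.082, 0.108 and 0.083 FPKM in forebrain cultures (2.29 ± 0.15, 0.00101), and Irx5 at 4.29, 2.95 and 4.63 FPKM in hindbrain cultures, against 0.135, 0.078 and 0.195 FPKM in forebrain cultures (2.11 ± 0.12, 0.000455). Irx3 was lower, at 1.80, 1.58 and 1.97 FPKM in hindbrain cultures and 0.141, 0.084 and 0.143 FPKM in forebrain cultures (1.31 ± 0.12, 0.00329). All 4 genes were low in every forebrain culture and varied little between the hindbrain cultures. Irx3 and Irx5 are next to each other among the genes tested that could be placed in the RefSeq annotation. Without pair E the adjusted p of Irx3 was 0.0590, while Irx1, Irx2 and Irx5 passed without any 1 pair.

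Other factors of midbrain and hindbrain varied more between cultures. En2 was at 1.20, 2.22 and 2.87 FPKM in hindbrain cultures, against 0.026, 0.098 and 0.059 FPKM in forebrain cultures (1.51 ± 0.17, limma adjusted p = 0.00794). Cnpy1, its neighbour in the genome and related to a gene of FGF signaling in zebrafish, was at 1.21, 2.55 and 3.86 FPKM in hindbrain cultures, against 0.022, 0.092 and 0.173 FPKM in forebrain cultures (1.62 ± 0.20). Pax3, a paired box factor of the dorsal neural tube, was at 2.42, 4.65 and 5.46 FPKM in hindbrain cultures, against 0.010, 0.023 and 0.036 FPKM in forebrain cultures (2.29 ± 0.19, 0.00230). In these 3 genes hindbrain D was the lowest hindbrain culture and still lay above each forebrain culture. Mab21l2, which is needed for eye and midbrain development, had the opposite order, with 16.7, 4.50 and 2.03 FPKM in hindbrain cultures, against 0, 0.155 and 0.046 FPKM in forebrain cultures (2.64 ± 0.42, 0.0287). Foxb1, a forkhead factor, was at 2.54, 1.39 and 1.02 FPKM in hindbrain and at most 0.062 FPKM in forebrain cultures (1.31 ± 0.17, 0.0121). Mab21l1 (1.75 ± 0.10) and Meis1, a cofactor of HOX proteins (1.13 ± 0.11), also rose, but were well above 0 in forebrain cultures. Meis1 was at 10.7, 12.2 and 13.3 FPKM in hindbrain cultures, against 5.61, 4.37 and 4.99 FPKM in forebrain cultures. Without pair E the adjusted p was 0.110 for En2, 0.116 for Cnpy1, 0.154 for Mab21l2, 0.101 for Foxb1 and 0.0631 for Meis1. Without pair F it was 0.0675 for En2, 0.0730 for Cnpy1 and 0.0529 for Meis1.

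The forebrain factors that passed were at the other end. Lhx2, a LIM homeodomain factor of cortex and eye, was at 0.107, 0.041 and 0.104 FPKM in hindbrain cultures, against 7.35, 6.17 and 6.79 FPKM in forebrain cultures (−2.84 ± 0.11, limma adjusted p = 0.000147). Emx2, a factor of the dorsal forebrain, was at 0.044, 0.077 and 0.119 FPKM in hindbrain cultures, against 3.75, 3.46 and 3.38 FPKM in forebrain cultures (−2.07 ± 0.11, 0.000413). The forebrain values of both genes differed little between cultures D, E and F, and neither lost its call without 1 pair. Dmrta2, a zinc finger factor of the cortical hem and cortex, fell by 1.65 ± 0.16 and passed except without pair E (0.0521). Sp8, a zinc finger factor, fell by 0.92 ± 0.12 (0.0146). Without pair D, E or F adjusted p was 0.0717, 0.126 and 0.125 for Sp8.

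**Figure D2:**
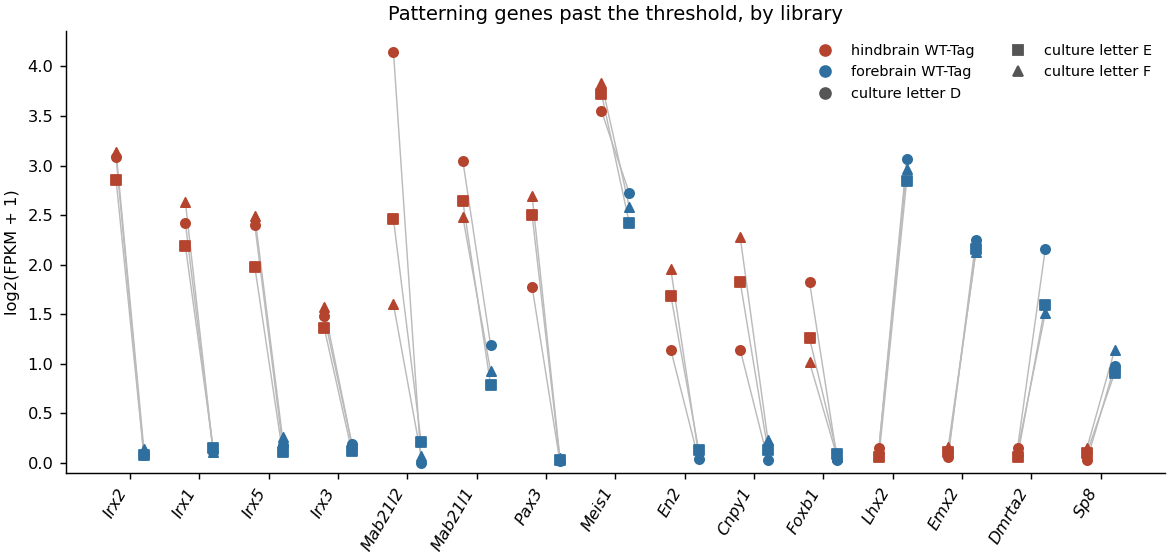
Levels of 15 patterning genes past the threshold as log2(FPKM + 1) (vertical axis), with the hindbrain value left of the forebrain value of the same gene and a line joining the cultures of a letter. The first 11 genes (Irx2 to Foxb1) are higher and the last 4 (Lhx2 to Sp8) lower in hindbrain cultures in all 3 pairs.

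Some regional markers did not pass or stayed low in both regions. Otx2, a factor of forebrain and midbrain that normally ends at the hindbrain border, was at 16.4, 8.04 and 7.68 FPKM in hindbrain cultures, against 1.01, 4.31 and 4.19 FPKM in forebrain cultures (1.54 ± 0.43, limma adjusted p = 0.166). All 3 hindbrain values lay above the forebrain values, although the test did not pass. In K27M cultures A, B and C, Otx2 did pass (1.93 ± 0.43, limma adjusted p = 0.0371). It was at 22.5, 21.7 and 28.5 FPKM in these hindbrain cultures, against 5.83, 6.42 and 4.61 FPKM in the forebrain cultures A, B and C. Its relative Otx1 was at 1.15, 0.172 and 0.113 FPKM in hindbrain cultures and 1.43, 0.950 and 0.947 FPKM in forebrain cultures (−0.57 ± 0.16, 0.172), and Pax6, expressed in both regions in the embryo, at 2.86, 2.15 and 2.93 FPKM in hindbrain cultures and 2.02, 2.21 and 2.25 FPKM in forebrain cultures (0.20 ± 0.12, 0.497). Several markers stayed below the filter and were not tested. Gbx2, which marks the hindbrain side of the boundary, was at 0.492, 0.440 and 0.478 FPKM in hindbrain cultures and at most 0.023 FPKM in forebrain cultures, and En1 at 0.052, 0.185 and 0.243 FPKM in hindbrain cultures and at most 0.031 FPKM in forebrain cultures. Dlx2, a factor of the ventral forebrain, was listed at 0 in the hindbrain cultures and at 0.137, 0.523 and 0.476 FPKM in forebrain cultures, and Gsx2, of the same territory, was at 0.033, 0.173 and 0.164 FPKM in hindbrain and 0.108, 0.582 and 0.548 FPKM in forebrain cultures. Six3, a factor of the anterior forebrain, had 0.009 to 0.023 FPKM in hindbrain and 0.074 to 0.248 FPKM in forebrain cultures. Nkx2-1 of the ventral forebrain had 0.031 to 0.129 FPKM in hindbrain and 0.069 to 0.183 FPKM in forebrain cultures, with overlap between the regions, and Emx1 of the cortex did not exceed 0.064 FPKM in any culture.

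HOX genes were not tested, because none of the 39 reached the filter, but their levels differed widely between the hindbrain cultures. Their summed level was 1.68, 7.69 and 19.1 FPKM in hindbrain cultures, against 0.211, 0.388 and 0.589 FPKM in forebrain cultures. Hoxa2, the most anterior HOX gene of the hindbrain, was at 0.642, 2.46 and 4.45 FPKM in hindbrain cultures, against 0, 0.010 and 0.020 FPKM in forebrain cultures. Hoxb2 was at 0.329, 1.33 and 1.49 FPKM in hindbrain cultures, against 0, 0.007 and 0.030 FPKM in forebrain cultures, and Hoxa5, a gene of more posterior levels, at 0.031, 0.898 and 2.18 FPKM in hindbrain cultures, against 0 in all 3 forebrain cultures. At 0.1 FPKM or more there were 3 HOX genes in hindbrain D, 10 in E and 18 in F, and none in a forebrain culture, where the highest value was 0.075 FPKM. In 24 of 39 genes the hindbrain value was highest in F, next in E and lowest in D. Some of the 24 were near 0, such as Hoxa10 at 0, 0.007 and 0.012 FPKM, and no share over all genes was computed for this order. In 17 of the 39, the 3 hindbrain values lay above the 3 forebrain values, beside 14.7% of all genes tested that had groups apart in either direction. That share is of genes past the filter, which include no HOX gene. Some of the 17 were near 0, such as Hoxb13 at 0.010 to 0.013 FPKM in hindbrain and 0 in forebrain cultures. In a limma fit with no filter, where 109 of 32641 genes passed, none of the 39 passed. In that fit 12 of the 39 had an unadjusted p below 0.05, with no share over all its genes to set beside them. The named Hoxa3 (0.058, 0.253 and 0.454 FPKM), Hoxb3 (0.068, 0.474 and 1.10 FPKM), Hoxb4 (0.050, 0.156 and 0.549 FPKM) and Hoxd3 (0.030, 0.094 and 0.165 FPKM) had the same order in the hindbrain cultures, with at most 0.024 FPKM in forebrain cultures. In K27M hindbrain cultures A, B and C the HOX sum was 0.239, 0.722 and 0.235 FPKM and no HOX gene exceeded 0.213 FPKM.

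**Figure D3:**
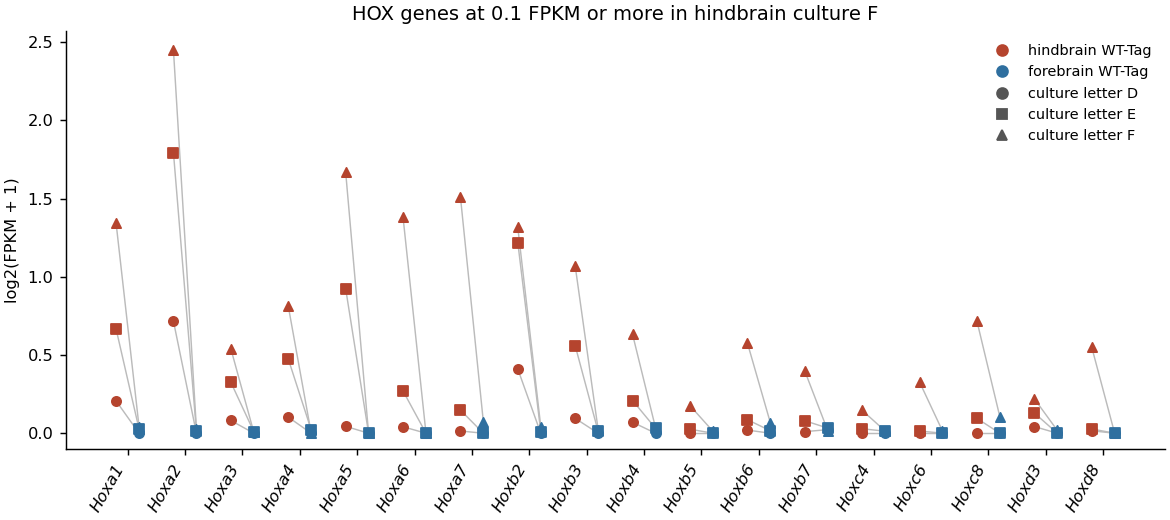
Levels of the 18 HOX genes at 0.1 FPKM or more in hindbrain culture F as log2(FPKM + 1) (vertical axis), with the hindbrain value left of the forebrain value and a line joining the cultures of a letter. Hindbrain culture D lies near the forebrain values in most genes and culture F lies highest, with Hoxa2 at 4.45 FPKM.

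Outside the patterning genes, the largest rise was that of Il33, a cytokine of the interleukin 1 family that is stored in the nucleus of glial cells. It was at 18.8, 29.2 and 37.3 FPKM in hindbrain cultures, against 2.25, 1.80 and 2.34 FPKM in forebrain cultures (3.19 ± 0.18, limma adjusted p = 0.000455). Luzp2, a leucine zipper protein gene, was among the most abundant genes that rose, at 74.0, 115 and 123 FPKM in hindbrain cultures, against 8.32, 22.5 and 20.9 FPKM in forebrain cultures (2.61 ± 0.20, 0.00169). Pdlim3, which binds actinin, was at 19.4, 7.59 and 11.9 FPKM in hindbrain cultures, against 0.782, 0.856 and 0.735 FPKM in forebrain cultures (2.87 ± 0.23, 0.0020), and Calcrl, the receptor for adrenomedullin and CGRP, at 25.6, 16.6 and 15.2 FPKM in hindbrain cultures, against 3.07, 2.90 and 3.23 FPKM in forebrain cultures (2.27 ± 0.16, 0.00131). These 4 genes passed without any 1 pair.

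The largest falls outside the patterning genes were those of Nrn1 and Dio2. Nrn1, which encodes neuritin, a surface protein that promotes neurite growth, was at 0.233, 0.235 and 0.451 FPKM in hindbrain cultures, against 14.6, 16.7 and 15.4 FPKM in forebrain cultures (−3.67 ± 0.26, limma adjusted p = 0.00134). Dio2, the deiodinase that turns thyroxine into active thyroid hormone and is made by astrocytes and tanycytes, was at 1.40, 1.35 and 0.959 FPKM in hindbrain cultures, against 15.4, 20.1 and 21.001 FPKM in forebrain cultures (−3.14 ± 0.13, 0.000170). Both genes stood apart in every pair by a wide margin and passed without any 1 pair. Cacna2d1, a subunit of calcium channels (−1.93 ± 0.12), Bmper, a secreted BMP binding protein (−1.89 ± 0.14), and Hs3st2, an enzyme that sulfates heparan sulfate (−1.75 ± 0.17), passed without any 1 pair as well. Nptx2, a secreted pentraxin of synapses, was at 3.75, 0.528 and 0.375 FPKM in hindbrain cultures and 12.8, 6.73 and 6.42 FPKM in forebrain cultures (−2.10 ± 0.23, 0.00614). Without pair E or F its adjusted p was 0.0790 and 0.0572.

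Among 12 tested glutamate receptor genes, 1 rose and 3 fell (median −0.22), where 1.19% of all genes tested rose and 0.826% fell. Subunits of AMPA receptors went opposite ways. Gria4 was at 8.47, 20.2 and 27.3 FPKM in hindbrain cultures, against 1.34, 1.81 and 1.64 FPKM in forebrain cultures (2.78 ± 0.28, limma adjusted p = 0.00461). Gria2, the subunit that limits calcium entry after editing, was at 8.86, 10.3 and 14.5 FPKM in hindbrain cultures, against 37.0, 38.3 and 36.6 FPKM in forebrain cultures (−1.68 ± 0.14, 0.00203). Gria1 was at 1.49, 0.639 and 0.260 FPKM in hindbrain cultures, against 5.17, 2.67 and 2.51 FPKM in forebrain cultures (−1.32 ± 0.17, 0.0112). In FPKM, which is scaled by length, Gria4 exceeded Gria2 in hindbrain cultures E and F, and Gria2 exceeded Gria4 in hindbrain D and in each forebrain culture. The NMDA receptor subunit gene Grin2c was at 0.140, 0.093 and 0.172 FPKM in hindbrain and 4.31, 2.13 and 2.78 FPKM in forebrain cultures (−1.81 ± 0.14, 0.00169). Gria4 had an adjusted p of 0.0642 without pair E, and Gria1 had 0.0697, 0.101 and 0.0950 without pair D, E or F. None of 8 tested genes of GABA and glycine receptors passed in limma, with 4 at an unadjusted p below 0.05 (14% of all genes tested).

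Of 18 tested astrocyte genes, 1 rose and 3 fell (median −0.18), where 1.19% of all genes tested rose and 0.826% fell. The list summed to 1171 to 2233 FPKM in hindbrain cultures and 1439 to 2214 FPKM in forebrain cultures, and Apoe, its highest member, was at 135, 476 and 772 FPKM in hindbrain cultures, against 285, 671 and 597 FPKM in forebrain cultures (−0.40 ± 0.38, limma adjusted p = 0.683). Agt, which encodes angiotensinogen, was at 42.9, 54.3 and 59.8 FPKM in hindbrain cultures, against 8.998, 14.3 and 15.45 FPKM in forebrain cultures (1.96 ± 0.22, 0.00650). Mt3, a metallothionein of brain, was at 94.5, 81.3 and 91.5 FPKM in hindbrain cultures, against 199, 177 and 192 FPKM in forebrain cultures (−1.08 ± 0.09, 0.0020). Gfap, the filament of astrocytes, depended on the pairing. It was at 0.703, 9.69 and 9.47 FPKM in hindbrain cultures, against 4.80, 51.7 and 32.8 FPKM in forebrain cultures (−1.92 ± 0.13, 0.00101), so the groups overlap although each pair differs in the same direction, and without the pairing by letter its adjusted p was 0.381. Gfap was lower in culture D than in E and F in both regions. Fgfr3, an FGF receptor of progenitors and astrocytes, was at 28.4, 16.3 and 20.3 FPKM in hindbrain cultures, against 41.1, 28.9 and 27.4 FPKM in forebrain cultures (−0.58 ± 0.10, 0.0322), also with overlap and with an adjusted p of 0.256 without the pairing. Without pair D, E or F the values were 0.0529, 0.0686 and 0.0567 for Agt and 0.114, 0.227 and 0.111 for Fgfr3.

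**Figure D4:**
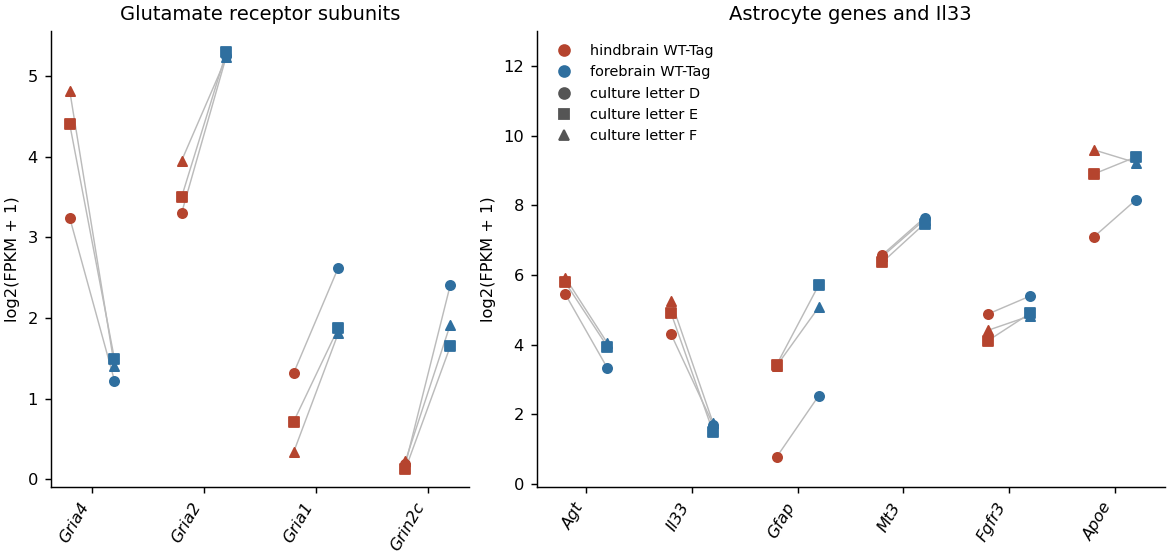
Levels of 4 glutamate receptor subunit genes (left) and of 5 astrocyte genes and Il33 (right) on a vertical axis of log2(FPKM + 1), with the hindbrain value left of the forebrain value and a line joining the cultures of a letter. Gria4, Agt and Il33 are higher in hindbrain cultures in all 3 pairs, Gria2, Gria1, Grin2c, Gfap, Mt3 and Fgfr3 lower, and Apoe has no common direction.

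Of 33 tested genes of the extracellular matrix 6 rose and 2 fell (median 0.01), where 1.19% of all genes tested rose and 0.826% fell. Tnc, the glycoprotein tenascin C, was at 105, 64.6 and 142 FPKM in hindbrain cultures, against 48.9, 38.6 and 47.8 FPKM in forebrain cultures (1.12 ± 0.15, limma adjusted p = 0.0138). Rises of the laminin genes Lama4 (1.07 ± 0.16) and Lamb1 (0.66 ± 0.10), of Sparc (1.00 ± 0.15), a collagen-binding secreted protein, and of the proteoglycan Vcan (0.97 ± 0.16) also passed, with the basement membrane gene Nid1 (1.12 ± 0.19), and the collagens Col4a5 (−0.54 ± 0.09) and Col11a1 (−0.81 ± 0.15) fell. Nid1, Col4a5 and Col11a1 are outside the rule for named genes and are given because the count is small. Without the pairing adjusted p was 0.118 for Sparc, 0.0646 for Vcan, 0.141 for Nid1, 0.128 for Col4a5 and 0.0613 for Col11a1. Without pair D it was 0.0823 for Tnc, 0.0520 for Sparc, 0.115 for Lamb1, 0.152 for Nid1, 0.0528 for Col4a5 and 0.113 for Col11a1. Without pair E it was 0.106 for Lama4, 0.0666 for Sparc, 0.136 for Lamb1, 0.245 for Vcan, 0.110 for Nid1, 0.245 for Col4a5 and 0.241 for Col11a1. Without pair F it was 0.0675 for Tnc, 0.0730 for Lama4, 0.103 for Sparc, 0.182 for Lamb1, 0.194 for Vcan, 0.222 for Nid1, 0.223 for Col4a5 and 0.0732 for Col11a1. Of 30 axon guidance genes Robo1, a Slit receptor (1.04 ± 0.15, 0.0186), and Sema6a (0.46 ± 0.08, 0.0331) rose, and of 16 Eph receptors and ephrins Epha7 rose (0.84 ± 0.12, 0.0156). None of 19 cadherins and delta protocadherins passed in limma, with 8 at an unadjusted p below 0.05 (14% of all genes tested). Sema6a had an adjusted p of 0.367 without the pairing, and without pair D, E or F adjusted p was 0.0823, 0.161 and 0.139 for Robo1 and 0.0966, 0.255 and 0.209 for Sema6a. For Epha7 it was 0.147 without pair E and 0.130 without pair F.

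Lists of signaling pathways that pattern the neural tube held up to 2 calls each, and such small counts are not set apart from the 2.02% called over all genes. In the retinoid list of 7 tested genes, Aldh1a1, which makes retinoic acid from retinal, was at 9.75, 17.3 and 12.3 FPKM in hindbrain cultures, against 2.59, 1.498 and 1.26 FPKM in forebrain cultures (2.34 ± 0.24, limma adjusted p = 0.00461), and no other member passed. The Wnt list had 1 rise in 24 genes, the receptor gene Fzd10 (0.68 ± 0.12, 0.0438), the BMP list 1 in 20, Smad5 (0.41 ± 0.07, 0.0393), and the FGF and MAPK list of 20 had the rise of Fgf14 (0.65 ± 0.10, 0.0291) and the fall of Fgfr3. Fzd10 was at 11.1, 3.45 and 3.98 FPKM in hindbrain cultures, against 8.55, 1.63 and 1.58 FPKM in forebrain cultures, so the groups overlap, and its adjusted p without the pairing was 0.701. None of 9 hedgehog genes and none of 16 Notch genes passed, while 3 and 2 of them had an unadjusted p below 0.05 (14% of all genes tested). Aldh1a1 had 0.0530 without pair E, and Fzd10 had 0.285 without pair E and 0.252 without pair F. Without pair D, E or F adjusted p was 0.145, 0.255 and 0.217 for Smad5 and 0.0682, 0.235 and 0.201 for Fgf14. Wls, which carries Wnt proteins to the cell surface, was chosen after its values were seen and was at 67.7, 50.2 and 44.4 FPKM in hindbrain cultures, against 20.1, 14.3 and 14.6 FPKM in forebrain cultures (1.66 ± 0.13, 0.00169).

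Progenitor and cell cycle genes were called about as often as all genes tested (2.02%). Of 20 tested genes of neural stem and progenitor cells only Ccnd2, a D-type cyclin, passed, at 78.1, 87.9 and 71.2 FPKM in hindbrain cultures, against 157, 155 and 171 FPKM in forebrain cultures (−1.02 ± 0.18, limma adjusted p = 0.0406, and 0.157, 0.186 and 0.257 without pair D, E or F). None of 27 proliferation genes passed in limma and 4 had an unadjusted p below 0.05 (14% of all genes tested). Of the 27, 25 had a negative change (median −0.19, against −0.04 for all genes tested), with no share by sign over all genes to set beside them. Pcna, the clamp of DNA replication, was at 137, 80.1 and 74.1 FPKM in hindbrain and 140, 90.6 and 100 FPKM in forebrain cultures. Culture D was high in both regions for the summed proliferation list, at 1329 FPKM in hindbrain and 1316 FPKM in forebrain, against at most 705 FPKM in the other hindbrain and 861 FPKM in the other forebrain cultures. None of 14 tested genes of oligodendrocyte precursors passed in limma and none of 8 of mature oligodendrocytes (4 and 2 at an unadjusted p below 0.05), where Cnp was at 22.1, 33.1 and 43.8 FPKM in hindbrain cultures and 27.2, 44.0 and 39.9 FPKM in forebrain cultures. Among 8 tested neuron genes Gap43, a growth cone protein, rose (74.2, 45.0 and 47.2 FPKM in hindbrain, against 37.9, 18.8 and 20.3 FPKM in forebrain cultures, 1.12 ± 0.12, 0.00505) and Elavl3, an RNA-binding protein of neurons, fell (−0.58 ± 0.11, 0.0452). Gap43 had 0.0543 and Elavl3 0.136 without the pairing, Gap43 had 0.0684 and 0.0572 without pair E or F, and Elavl3 0.165, 0.316 and 0.130 without pair D, E or F.

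The remaining lists held at most 2 calls each. Ednrb, an endothelin receptor of glia and neural crest, was the 1 call among 4 neural crest genes (0.41 ± 0.07, limma adjusted p = 0.0405, and 0.221 without the pairing). Of 22 imprinted genes Ndn rose (1.01 ± 0.18, 0.0381) and Mest fell (−0.69 ± 0.11, 0.0291), with 0.0851 and 0.0708 without the pairing. The immediate early gene Arc, a synaptic protein, was at 20.5, 11.7 and 8.63 FPKM in hindbrain cultures, against 54.6, 33.4 and 31.2 FPKM in forebrain cultures (−1.51 ± 0.11, 0.00131), and the other 15 genes of that list did not pass, with Fos at −0.40 ± 0.32. Of all 16 immediate early genes, 13 had a negative change (median −0.43, against −0.04 for all genes tested). The list summed to 836, 785 and 775 FPKM in hindbrain cultures, against 951, 1169 and 1066 FPKM in forebrain cultures. Of 16 genes of hypoxia and glycolysis 15 had a positive change (median 0.48, against −0.04 for all genes tested). None of the 16 passed, with 3 at an unadjusted p below 0.05. Their sum was 1101, 736 and 1184 FPKM in hindbrain cultures and 733, 792 and 719 FPKM in forebrain cultures, so pair E went the other way. None of 18 genes of PRC2 and histone H3.3 passed and none of 9 interferon genes (2 at an unadjusted p below 0.05 in each list). Without pair D, E or F adjusted p was 0.147, 0.253 and 0.219 for Ednrb, 0.0842, 0.181 and 0.175 for Ndn and 0.0989, 0.212 and 0.211 for Mest. Transmitter identity genes (3 tested), pericyte and meningeal genes (5), ependymal and choroid genes (4), the 1 microglial gene and the 1 sex-linked gene tested held no call in limma. Of these, 3 ependymal and choroid genes and the microglial gene, Cd68, had an unadjusted p below 0.05.

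The same contrast in K27M cultures used other libraries of the same regions. Of the 266 genes, 251 had the same sign in K27M cultures (94.4%), which held for 69.4% of all genes tested, and 200 also passed there in the same direction. None passed in the opposite direction, and 1194 genes passed in all (9.05%), 683 higher in hindbrain (5.18%) and 511 lower (3.87%). Both contrasts share 1 estimate of the spread per gene, so the count of 200 is not independent of the WT-Tag calls. The median ratio of the K27M to the WT-Tag change over the 266 genes was 0.963. Irx2 was at 3.38 in K27M cultures and 2.92 in WT-Tag cultures, Lhx2 at −3.30 and −2.84, and Dio2 at −3.04 and −3.14 (log2 changes). Gria4 was at 0.25 in K27M cultures (limma adjusted p = 0.622), where WT-Tag cultures had 2.78. The difference between the genotypes was tested by the interaction term, and no gene of 13190 passed (0.0%), with 1184 at an unadjusted p below 0.05 (8.98%), 127 of them among the 266. That term holds the WT-Tag change by which the 266 were chosen, so the 127 are not independent of the choice. Without the pairing 5 genes passed this test, Dkk3, Htr3a, Lin28b, Mtmr11 and Slc38a4, each at an adjusted p of 0.0389 (0.125 with the pairing), and 29 passed without pair D of the WT-Tag cultures, with all K27M pairs kept.

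**Figure D5:**
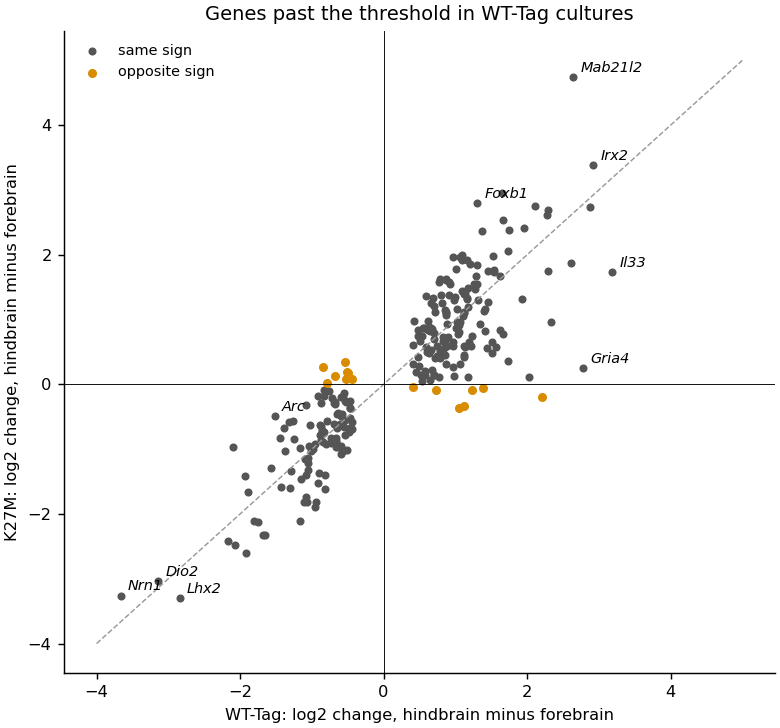
Log2 change, hindbrain minus forebrain, in K27M cultures (vertical axis) against that in WT-Tag cultures (horizontal axis) for the 266 genes past the threshold in WT-Tag cultures, with the line of equal change dashed. The sign is the same for 251 genes and opposite for 15, and Gria4 lies near 0 in K27M cultures.

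Neighbouring genes were called together in 15 instances among 251 called genes that could be placed in the RefSeq annotation, 14 of them with the same direction. Those 15 instances make up 0.133% of all 11269 neighbouring pairs of tested genes, so that share is no background for them. Of all these pairs 55.8% had changes of the same sign, and 2.22% of the placed genes were called. The number of such instances to be had by chance was not computed. Besides Irx3 with Irx5 and En2 with Cnpy1, Emx2os fell with Emx2 (−1.01 and −2.07) and Casp12 rose with Gria4 (1.17 and 2.78), while Moxd1 and its neighbour Enpp1 had opposite changes (−0.94 and 0.88). Whether counting used strand is not stated, so reads of overlapping pairs such as Emx2os and Emx2 cannot be told apart.

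The 9 WT-Tag brainstem tumors, with Nestin-creERT2 and the PDGFRα and Trp53 alleles in addition, gave a description of the same genes in brainstem tissue, with no test. In tumors 8 and 9 the levels of Xist and Ddx3y did not match the labelled sex, and the values without both follow in brackets. Irx2 ran from 1.28 to 6.91 FPKM with a median of 4.57 (3.71 to 6.91, median 4.92), beside 6.24 to 7.82 FPKM in hindbrain and at most 0.105 FPKM in forebrain cultures. Hoxa2 ran from 1.68 to 6.71 FPKM with a median of 2.98 (the same without both), beside 0.642 to 4.45 FPKM in hindbrain cultures. Lhx2 had a median of 1.23 FPKM in tumors (0.862), above the hindbrain cultures at 0.107 FPKM or less and below the forebrain cultures at 6.17 FPKM or more. En2 had a median of 4.57 FPKM in tumors (4.06) and Pax3 0.161 FPKM (0.227), where the lowest hindbrain cultures had 1.20 and 2.42 FPKM.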

How the data were processed

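The RNA-seq libraries were 3 hindbrain and 3 forebrain WT-Tag neurosphere cultures. RNA was extracted with Trizol after addition of ERCC spike-ins, and the library kit was TruSeq Stranded Total RNA (per the labels' protocols). Per the submitters' processing notes, the tools CASAVA, TopHat2 and STAR and the mm9 build were used. Their versions and roles, the counting tool, its strand setting and the annotation were not given in the sources used here. FPKM values for 34591 entries were deposited as 1 table. FPKM are not counts and the lengths behind them are not given, so no count test was run, and depth is given relative to other libraries.

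Genes at 1 FPKM or more in at least 3 of the 12 neurosphere libraries were tested on log2(FPKM + 1) with limma 3.58.1 in R 4.3.3, 2-sided, with trend = TRUE and p-values adjusted after Benjamini and Hochberg over 13190 genes. Culture letter was a block, and region and region by genotype were terms. The scale understates changes of genes with low FPKM. The pairing comes from the labels, which give the cultures of a letter 1 experiment id and 1 sex. Deviations of paired cultures from their group means correlated at 0.668, 0.712 and 0.165 for D, E and F, and at 0.216, −0.0471 and −0.0405 for the K27M letters A, B and C. Named genes were the 12 largest changes per direction past the threshold, up to 5 passing genes of each of 34 lists (835 genes, 823 in the table), and fixed marker genes; some of these are not reported here. The genes, lists and comparison were chosen with earlier results of these data known. A permutation test of 3 against 3 cannot give p below 0.1. The script was tested on simulated data. Alternatives were other blocks, other libraries in the fit, pseudocounts, filters, scalings, no trend and leaving out each pair. Promoters are RefSeq's. ERCC spike-ins and K27M tumors were not used here.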

Additional observations from a re-analysis of the deposited data

Results flagged for a closer look

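Irx2 in WT-Tag tumor 9 was at 1.28 FPKM, apart from the other 8 WT-Tag tumors, whose values lay between 3.38 and 6.91 FPKM. On log2(FPKM + 1) the gap to the nearest tumor was 0.525 of the whole range, where 0.493 is the limit for 9 samples. Of 12 genes looked at in this way 1 was marked, and chance marks about 1 in 20 groups. Xist and Ddx3y of tumor 9 did not match its labelled sex.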

How the results depend on the processing

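The 266 genes (157 higher, 109 lower, 121 by at least 2-fold) became 240 (146, 94, 113) without the replicate block, with 188 genes shared, and 253 with experiment id as the block. In the 6 WT-Tag libraries alone 304 passed with the block and 94 (61, 33, 73) without it, with no filter on low values 109 (63, 46, 70), and with at least 5 FPKM 138 (77, 61, 74). Without replicate 1, 2 or 3 of the WT-Tag cultures (pairs D, E, F; K27M pairs kept) counts ran from 40 to 153, from 22 to 88 higher, from 18 to 65 lower and from 38 to 105 by at least 2-fold. Pseudocounts of 0.1 and 0.5, quantile and upper-quartile scaling and no trend gave 264 to 286 in all. The interaction between region and genotype, with 0 genes, had 5 without the replicate block, 4 with quantile normalization and 0 to 29 without 1 pair. The share of genes with the same sign in K27M cultures ran from 90.2% to 100% without 1 pair. Fabp7, at −0.00093, turned to 0.0254 with quantile normalization and 0.0529 with upper-quartile scaling, and ran from −0.0350 to 0.0416 without replicate 1, 2 or 3. Of 55 named genes that passed, 20 passed under all of the 14 alternatives, 11 lost their call without the replicate block, 23 lost it in the 6 libraries alone without the block, 21 with no filter, and 18, 32 and 27 without replicate 1, 2 and 3. The cause was not tested, except that leaving out a pair leaves fewer samples. The settings other than the block for the K27M and interaction results were added after seeing the data. The alternative CpG threshold for promoters was not run, because too few promoters were matched. The depth of genes near 0 limits what can be said of HOX genes.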

Other observations

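Outside the lists, some genes past the threshold belong to families not described so far, and they were chosen after their values were seen. Nr2f2, a nuclear receptor (COUP-TFII) of ventral and caudal brain territories, was at 4.58, 1.77 and 2.13 FPKM in hindbrain cultures D, E and F, against 0.240, 0.096 and 0.147 FPKM in forebrain cultures (1.65 ± 0.17, limma adjusted p = 0.00496). Rnf43, a ubiquitin ligase that removes Wnt receptors, was at 3.78, 2.31 and 2.25 FPKM in hindbrain cultures, against 0.287, 0.235 and 0.320 FPKM in forebrain cultures (1.54 ± 0.15, 0.00458), with 0.0590 without pair E. Lgr5, an R-spondin receptor, was at 1.17, 1.47 and 2.07 FPKM in hindbrain cultures, against 0.310, 0.272 and 0.257 FPKM in forebrain cultures (0.99 ± 0.15, 0.0203), with 0.175 without pair E and 0.148 without pair F. Erbb4, a neuregulin receptor, was at 10.3, 14.6 and 16.6 FPKM in hindbrain cultures, against 2.75, 3.87 and 4.32 FPKM in forebrain cultures (1.67 ± 0.18, 0.00614), with 0.0752 and 0.0602 without pair E or F.

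Six3os1, the antisense gene of Six3, was at 0.017, 0.013 and 0.012 FPKM in hindbrain cultures, against 0.666, 1.87 and 2.21 FPKM in forebrain cultures (−1.29 ± 0.21, 0.0291), with 0.245 and 0.201 without pair E or F. Cdkn1a, the cell cycle inhibitor p21, was at 42.7, 32.7 and 38.3 FPKM in hindbrain cultures, against 58.0, 66.6 and 68.7 FPKM in forebrain cultures (−0.75 ± 0.12, 0.0263), with 0.186 and 0.193 without pair E or F. These p-values are from limma, adjusted over all genes tested. In hindbrain cultures all 6 genes lay apart from the forebrain cultures, as did 244 of the 266 genes they were picked from. Of all genes tested 14.7% had groups apart.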
